A study of Rattus with 9 samples.

Results

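The comparison set livers of Sprague-Dawley rats labelled pomegranate-high against livers of rats labelled normal control, with 3 libraries in each group, so 6 of the 9 libraries of the series. The remaining 3 libraries are livers labelled model, which entered the same statistical fit. Their values are printed for some genes only, so a gene shown without them may differ in model livers too. Sprague-Dawley is an outbred laboratory rat strain, and all 9 livers were sampled after 8 weeks of dosing in a study of hyperlipidemia, an excess of lipids in the blood. The labels give neither the preparation or dose of pomegranate, nor how the model was made, nor the sex and age of the rats, and they do not say whether pomegranate-high rats were also model rats. Whether the 3 libraries of a group were 3 different rats is not stated, so each p-value refers to the spread between libraries, which may be technical. Every gene with at least 1 FPKM (fragments per kilobase of gene, scaled to a common library total, so a level corrected for gene length and depth) in at least 3 of the 9 libraries was included, which kept 11078 of the 20236 genes, 10450 of them protein-coding.

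The liver clears cholesterol from the blood, makes it through the mevalonate pathway under the control of SREBP transcription factors, and disposes of it as bile acids and lipoproteins. Hepatocytes near the portal vein make glucose and urea and break down amino acids, while those around the central vein make glutamine and bile acids. When an amino acid runs short or other stress reaches the translation machinery, the factor ATF4 turns on genes of asparagine, serine and one-carbon metabolism.

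The libraries were not equally alike. Depth ranged over 14077241 to 16363407 reads in the pomegranate-high livers and 16166083 to 17966670 reads in the normal control livers. Mitochondrially encoded genes took 9.62%, 11.4% and 4.22% of reads in pomegranate-high replicates 1, 2 and 3, against 6.38%, 4.18% and 4.17% in the normal control livers. The group means were 8.42% and 4.91%, and the difference of 3.51 percentage points did not pass a two-sided exact permutation test (p = 0.2, where 0.1 is the smallest p that 3 against 3 libraries allow). Across genes, the median correlation with the other 8 libraries was 0.931, 0.922 and 0.966 for pomegranate-high replicates 1 to 3, against 0.963, 0.969 and 0.964 for the normal control livers. Pomegranate-high replicate 1 also moved with gene length, with a median log2 difference from the normal control mean of 0.36 over the shortest of 5 length classes and -0.27 over the longest. Pomegranate-high replicates 1 and 2 therefore stand apart from replicate 3, and many lists of genes are given for each pomegranate-high library below. Among the model livers, which share the fit, replicate 1 had 14.5% of reads on mitochondrially encoded genes, the highest of the 9 libraries. It also had the fewest reads, 13678658. Its median correlation was 0.929, against 0.970 and 0.967 for model replicates 2 and 3. The hepatocyte markers summed to 54006, 50437 and 66638 FPKM in the pomegranate-high livers, against 71091, 78391 and 68906 FPKM in the normal control livers, so both groups read as liver, but the sums did not overlap. Reads of Alb, serum albumin, took 5.82% ± 1.62 of the total in pomegranate-high and 8.73% ± 0.654 in normal control livers (SD, n = 3 each; two-sided exact permutation p = 0.1, the smallest possible). Over the 15 hepatocyte markers the median log2 difference was only -0.10, with -0.43, -0.31 and 0.08 in pomegranate-high replicates 1, 2 and 3. Its sign changed in 3 of 23 alternatives. The part of the lower marker sums and Alb share in the lower hepatocyte gene lists below was not tested.

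Among the 11078 genes, 1 rose and 1 fell in pomegranate-high livers at an adjusted p under 0.05 (limma with Benjamini-Hochberg adjustment), which is 0.00903% of genes in each direction. The gene that rose was Asns, asparagine synthetase, and the gene that fell was RT1-CE16, an MHC class I gene. At an unadjusted p under 0.05, a looser rule that chance alone also meets, 802 genes (7.24%) were higher and 323 (2.92%) lower, 10.2% in all. That split depended on scaling: it was 540 higher and 416 lower with TPM scaling, 558 and 610 with median-of-ratios scaling, 594 and 597 with quantile normalization, and 943 and 291 with mitochondrial genes left out of the total. The median log2 difference over all genes was 0.07, and it was -0.04 with TPM scaling, so small list medians have no fixed sign. Groups did not overlap for 1379 genes (12.4%) on the higher side and 406 (3.66%) on the lower side, 16.1% in all. These shares, and those at an unadjusted p under 0.05, are the background for the list counts and separated genes below. Without pomegranate-high replicate 3 the fit called 328 genes, 151 higher (1.36%) and 177 lower (1.6%). The median log2 difference from normal control over those higher genes was 1.44, 1.79 and 0.55 in pomegranate-high replicates 1, 2 and 3, and over the lower genes it was -1.86, -1.32 and 0.09. Those lower genes thus stood near the normal control level in replicate 3. Leaving out any other single library left 0 or 1 call. Among genes at an unadjusted p under 0.05, replicate 3 was the pomegranate-high library nearest to normal control for 578 of 802 higher and 248 of 323 lower genes. Leaving it out therefore favours calls.

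**Figure D1:**
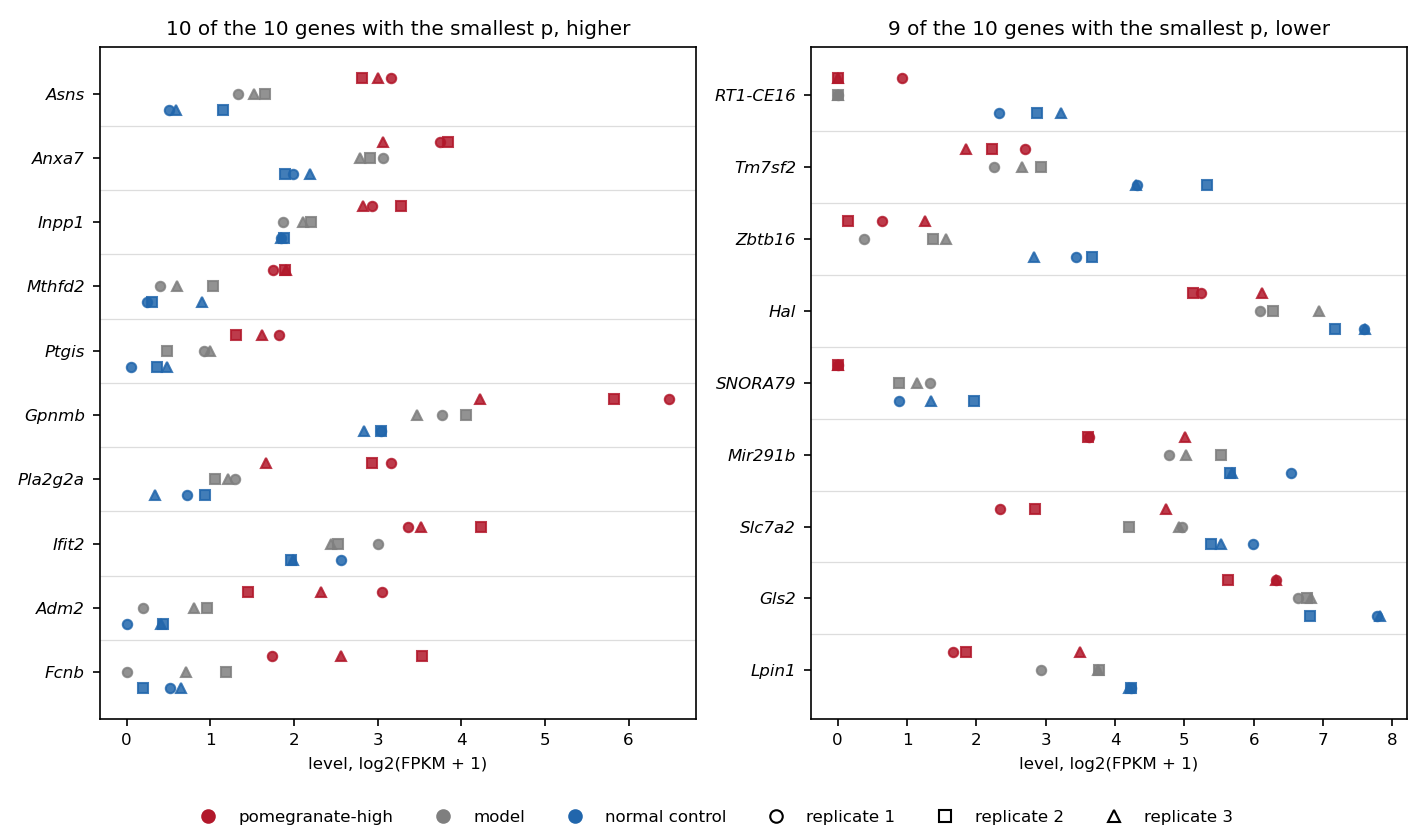
Level in log2(FPKM + 1) of genes with the smallest p, all 10 on the higher side and 9 of the 10 on the lower side (rows), in the 3 pomegranate-high, 3 model and 3 normal control libraries, with 1 marker shape per replicate. Asns and RT1-CE16 lead the 2 panels, and for Gpnmb, Slc7a2 and Lpin1 pomegranate-high replicate 3 lies nearest to the normal control livers.

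Asns makes asparagine from aspartate and is a standard target of ATF4. It lies on chromosome 4 at 33743364 to 33761163 on the minus strand of Rnor_6.0. Its level was 7.93, 6.03 and 7.01 FPKM in the pomegranate-high livers, 1.51, 2.14 and 1.87 FPKM in the model livers, and 0.417, 1.22 and 0.5001 FPKM in the normal control livers. All 3 pomegranate-high libraries, replicate 3 included, lay above all 6 others. The mean was 6.99 ± 0.951 FPKM in pomegranate-high and 0.711 ± 0.440 FPKM in normal control livers (SD, n = 3 each), a log2 difference of 2.25 ± 0.23 (SE) on the log2(FPKM + 1) scale, with a limma adjusted p of 0.0165. The call held in 10 of 22 alternative analyses, in which its adjusted p ranged over 0.0114 to 0.634. Among fits of Asns without 1 library it held without pomegranate-high replicate 3, normal control replicate 2 or model replicate 1, and missed the threshold without any of the other 6, at limma adjusted p values of 0.0517 to 0.181 and log2 differences of 2.12 to 2.34. Against the model livers the log2 difference was 1.49, with a limma adjusted p of 0.158.

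Other genes of amino acid shortage, serine synthesis and the mitochondrial folate cycle stood above normal control without passing the adjusted test. Mthfd2, a mitochondrial folate enzyme, was at 2.37, 2.72 and 2.74 FPKM in pomegranate-high livers, against 0.180, 0.234 and 0.864 FPKM in normal control livers. The groups did not overlap and the pomegranate-high values were close together (log2 difference 1.37 ± 0.24 SE, limma adjusted p 0.261). Psat1, the aminotransferase of serine synthesis, was at 4.07, 1.13 and 3.28 FPKM in pomegranate-high livers, against 0.131, 0.469 and 0.236 FPKM in normal control livers. Phgdh, the first enzyme of that pathway, was at 13.7, 2.09 and 11.7 FPKM in pomegranate-high livers, against 0.823, 2.14 and 0.525 FPKM in normal control livers. For Phgdh the groups overlapped, because pomegranate-high replicate 2 lay at the level of normal control replicate 2. Fgf21, a hormone the stressed or fasting liver releases, was at 157, 55.4 and 148 FPKM in pomegranate-high livers, against 11.05, 23.4 and 29.1 FPKM in normal control livers (log2 difference 2.41 ± 0.92 SE, limma adjusted p 0.433). Adm2, which encodes the peptide adrenomedullin 2, was at 7.32, 1.73 and 4.01 FPKM in pomegranate-high livers, against 0, 0.352 and 0.325 FPKM in normal control livers. Both genes separated the groups, and replicates 1 and 3 were the highest for each. Atf4 itself, picked for mention after its values were seen, was at 86.3, 168 and 83.1 FPKM in pomegranate-high livers, against 57.3, 65.8 and 77.1 FPKM in normal control livers.

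The amino acid starvation list had 17 tested genes, of which 12 were higher and 5 lower, with a median log2 difference of 0.63 beside 0.07 for all genes. That median was 0.35 without normal control replicate 1 and 0.39 without pomegranate-high replicate 2, and 0.37 among genes averaging at least 5 FPKM. At an unadjusted p under 0.05, 6 were higher, including Nupr1, Psph and Phgdh, and 2 were lower. The 2 lower ones are both brakes on the growth kinase mTORC1. Sesn2, which senses leucine, was at 9.63, 8.25 and 18.3 FPKM in pomegranate-high livers, against 28.0, 21.0 and 25.7 FPKM in normal control livers. Ddit4 was at 2.17, 2.31 and 2.96 FPKM in pomegranate-high livers, against 5.47, 3.74 and 9.09 FPKM in normal control livers. The list median was 0.49, 0.51 and 0.67 in pomegranate-high replicates 1, 2 and 3, against -0.21, 0.16 and 0.11 in normal control replicates 1, 2 and 3.

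**Figure D2:**
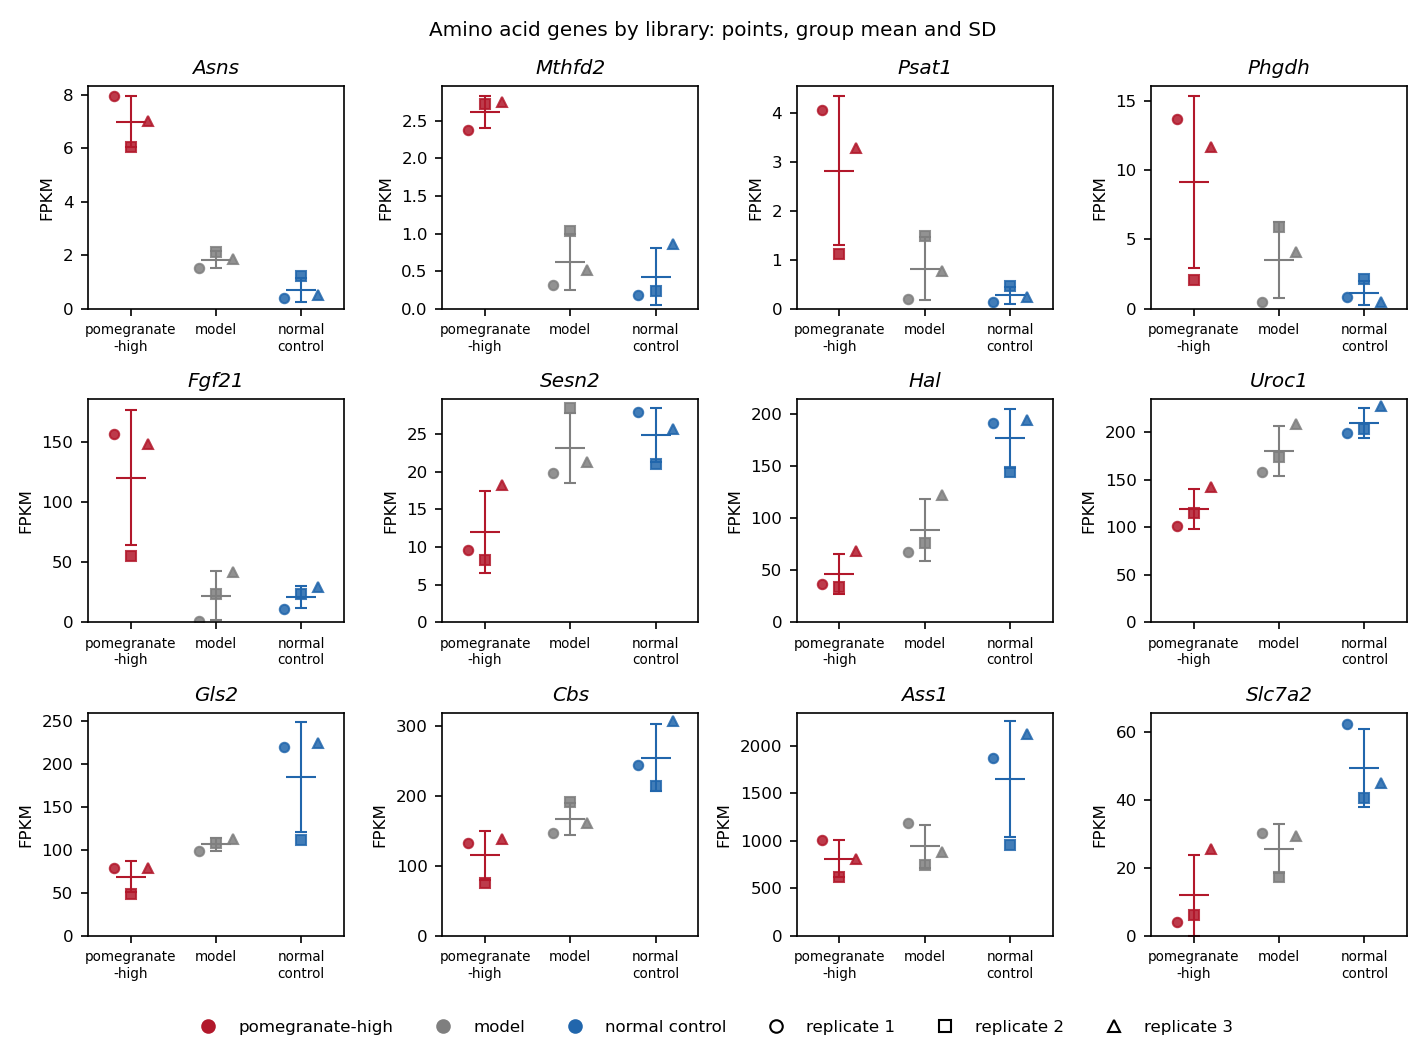
FPKM of 12 genes, those of amino acid metabolism and transport and the stress hormone Fgf21, in each library of the 3 groups; points are libraries, horizontal bars the group mean, and vertical bars the SD, cut at 0. Asns and Mthfd2 stand above all other libraries in pomegranate-high livers, while Hal, Uroc1, Gls2 and Cbs stand below every normal control library.

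Genes that break down amino acids were mostly lower in pomegranate-high livers. Of 31 tested, 28 were lower and 3 higher, with a median log2 difference of -0.58, and 12 were lower and 0 higher at an unadjusted p under 0.05. None passed the adjusted test. The list median was -0.46, -0.77 and -0.49 in pomegranate-high replicates 1, 2 and 3. Hal, histidase, which starts histidine breakdown, was at 36.8, 34.0 and 68.5 FPKM in pomegranate-high livers, 67.0, 76.3 and 122 FPKM in model livers, and 191, 144 and 194 FPKM in normal control livers. Every pomegranate-high library lay below every normal control library (log2 difference -1.96 ± 0.33 SE, limma adjusted p 0.205). Uroc1, urocanase, the next enzyme of that route, was at 101, 115 and 142 FPKM in pomegranate-high livers, against 199, 203 and 228 FPKM in normal control livers. Amdhd1, which follows it, was at 41.9, 24.1 and 49.3 FPKM in pomegranate-high livers, against 87.8, 53.1 and 76.6 FPKM in normal control livers. These 3 enzymes of the route separated the groups, and Amdhd1 was lower still in the model livers, at 12.2, 13.9 and 18.4 FPKM.

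Enzymes of glutamine and methionine showed the same order. Gls2, liver glutaminase, was at 79.2, 48.3 and 79.2 FPKM in pomegranate-high livers, against 219, 111 and 225 FPKM in normal control livers (log2 difference -1.38 ± 0.32 SE, limma adjusted p 0.285). Mat1a, which makes the methyl donor S-adenosylmethionine, was at 668, 468 and 767 FPKM in pomegranate-high livers, against 1659, 925 and 1697 FPKM in normal control livers. Cbs, which passes homocysteine toward cysteine, was at 133, 75.0 and 138 FPKM in pomegranate-high livers, against 244, 213 and 306 FPKM in normal control livers. None of these 3 groups of values overlapped. Sds, serine dehydratase, was at 71.7, 27.2 and 19.5 FPKM in pomegranate-high livers, against 905, 55.7 and 885 FPKM in normal control livers. Its groups overlapped, since normal control replicate 2 was far below the other normal control libraries. Got1, the cytosolic aspartate aminotransferase, had the same outlying library, with 114, 43.8 and 68.9 FPKM in pomegranate-high livers, against 626, 72.8 and 380 FPKM in normal control livers. Tat, Prodh1, Gldc and Tdo2, enzymes of tyrosine, proline, glycine and tryptophan breakdown, had log2 differences of -1.26, -0.79, -0.81 and -0.75, each with groups that did not overlap.

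The urea cycle, which turns the nitrogen of amino acids into urea, had 8 tested genes with a median log2 difference of -0.77, of which 7 were lower, 6 of them at an unadjusted p under 0.05. Ass1, argininosuccinate synthase, was at 1008, 623 and 804 FPKM in pomegranate-high livers, against 1871, 955 and 2120.5 FPKM in normal control livers. Cps1, the entry enzyme, was at 286, 289 and 374 FPKM in pomegranate-high livers, against 725, 381 and 617 FPKM in normal control livers. Cps1 separated the groups by a narrow margin at normal control replicate 2, and Ass1 did not separate them. The list median was -0.69, -1.16 and -0.45 in pomegranate-high replicates 1, 2 and 3, against 0.22, -0.44 and 0.16 in normal control replicates 1, 2 and 3, so pomegranate-high replicate 3 stood level with normal control replicate 2. Slc7a2, a carrier of arginine and lysine, was at 4.08, 6.20 and 25.7 FPKM in pomegranate-high livers, against 62.5, 40.7 and 45.0 FPKM in normal control livers. Replicate 3 lay between the other pomegranate-high libraries and the normal control ones. Slc7a2 had a limma adjusted p of 0.285 with all libraries and 0.0126 without replicate 3, its 1 call among 23 alternatives. Leaving out the library nearest to normal control favours a call, so that call is no separate support.

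Many of these enzymes mark periportal hepatocytes, and that list, which shares genes with both lists above, was lower as well. Of 15 tested genes 12 were lower, with a median log2 difference of -0.82 and 9 at an unadjusted p under 0.05. Pck1, the rate-setting enzyme of glucose production, was at 1237, 525 and 1612 FPKM in pomegranate-high livers, against 2277, 2320 and 3451 FPKM in normal control livers. The pericentral list had a median of 0.34, with 11 of 14 tested genes higher. The sign changed to -0.08 without pomegranate-high replicate 3 and to -0.05 with library quality weights. Without any other library of the 2 groups the median was 0.12 to 0.62. The list median was 0.39, -0.29 and 0.61 in pomegranate-high replicates 1, 2 and 3. Its 4 genes at an unadjusted p under 0.05 were all higher: Cyp7a1, the calcium-binding protein gene Rgn, the ammonium carrier Rhbg and the glutamate carrier Slc1a2. Rgn was at 336, 271 and 271 FPKM in pomegranate-high livers, against 177, 187 and 195 FPKM in normal control livers, and the groups did not overlap. A bulk library cannot tell fewer cells of a type from less RNA in each cell.

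**Figure D3:**
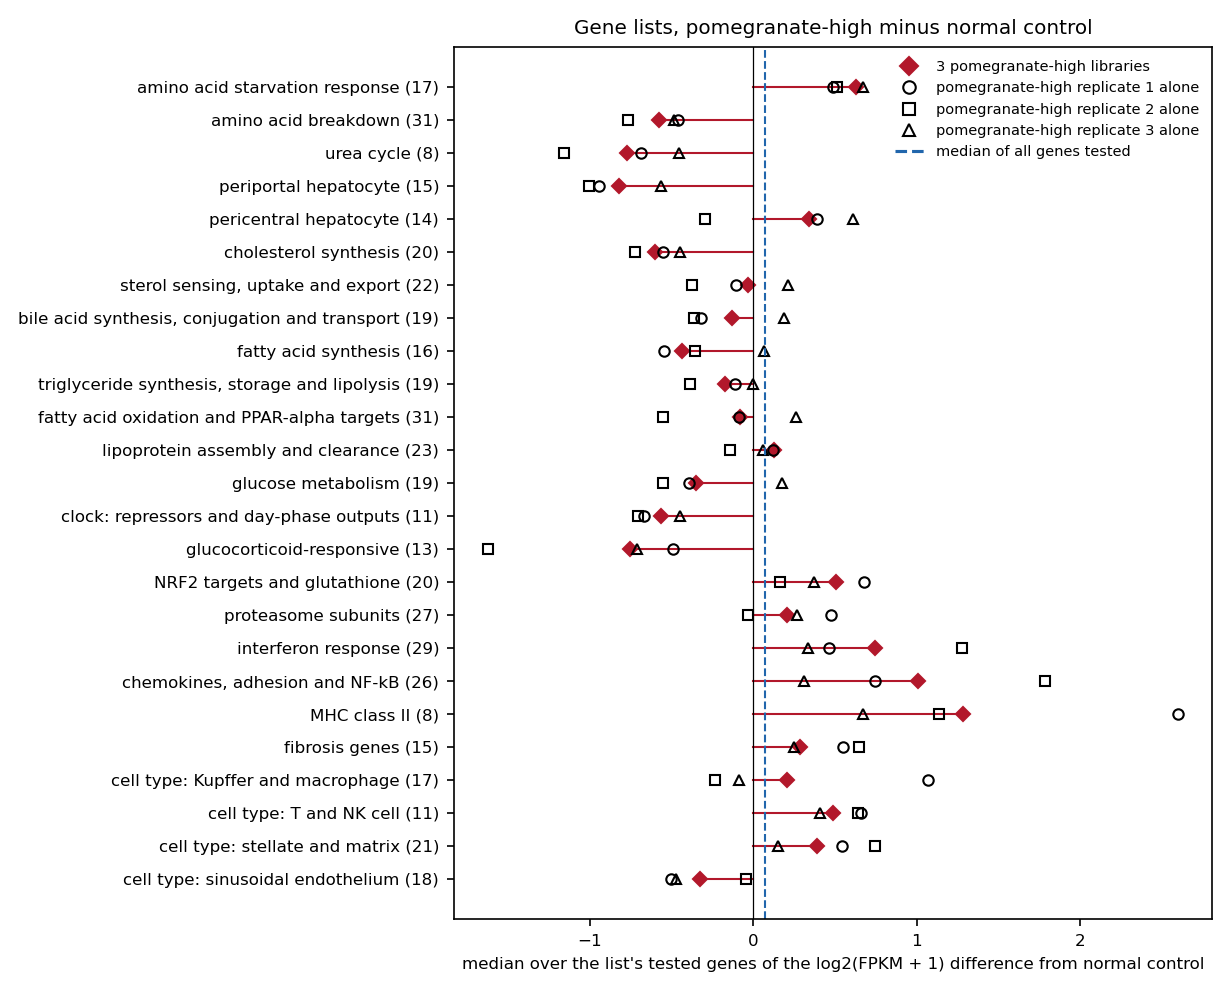
Median log2(FPKM + 1) difference from normal control over the tested genes of 25 lists (number of genes in brackets): diamonds use the 3 pomegranate-high libraries, open markers each library alone, and the dashed line is the median of all genes. Amino acid breakdown, urea cycle, periportal and cholesterol synthesis genes lie left of 0 in all 3 libraries, and MHC class II, chemokine and interferon genes lie right of 0 in all 3.

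Cholesterol synthesis genes, which SREBP2 drives when sterols are scarce, were lower on balance. Of 20 tested genes 18 were lower, with a median log2 difference of -0.60 that was -0.55, -0.72 and -0.45 in pomegranate-high replicates 1 to 3. Of the 20, 4 were lower and 0 higher at an unadjusted p under 0.05. Tm7sf2, a sterol reductase, was at 5.48, 3.66 and 2.62 FPKM in pomegranate-high livers, 3.80, 6.61 and 5.34 FPKM in model livers, and 19.0, 39.0 and 18.8 FPKM in normal control livers. Its groups were far apart (log2 difference -2.39 ± 0.33 SE, limma adjusted p 0.0861). Cyp51, the lanosterol demethylase, was at 7.61, 7.91 and 10.3 FPKM in pomegranate-high livers, against 17.0, 46.8 and 11.4 FPKM in normal control livers. It was highest in normal control replicate 2, and the remaining normal control libraries lay closer to the pomegranate-high ones. Acat2, which joins the first building blocks, was at 0.329, 0.209 and 0.872 FPKM in pomegranate-high livers, against 0.939, 1.97 and 1.39 FPKM in normal control livers. The list median was -0.31, 0.70 and -0.34 in normal control replicates 1, 2 and 3. Without normal control replicate 2 the list median difference was -0.26.

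Genes that sense, import and export sterols went in different directions, with 11 of 22 tested genes higher and 11 lower. Insig1, the sterol-regulated anchor of SREBP, was at 76.2, 22.6 and 41.3 FPKM in pomegranate-high livers, against 211, 96.3 and 150 FPKM in normal control livers. Stard4, a cytosolic cholesterol carrier, was at 2.47, 2.096 and 3.51 FPKM in pomegranate-high livers, against 6.89, 4.72 and 5.41 FPKM in normal control livers. Neither gene overlapped, and both were lower in all 3 pomegranate-high libraries. Lrp1, a receptor of lipoprotein remnants, overlapped, with a log2 difference of -0.86. The 2 genes higher at an unadjusted p under 0.05 were exporters that oxysterol-sensing LXR factors turn on. Abca1 was at 7.49, 13.6 and 7.72 FPKM in pomegranate-high livers, against 5.76, 5.45 and 4.92 FPKM in normal control livers. Abcg1 was at 8.40, 21.3 and 4.36 FPKM in pomegranate-high livers, against 2.08, 1.89 and 3.89 FPKM in normal control livers. Neither exporter overlapped, and Abcg1 in replicate 3 was near normal control replicate 3.

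Cyp7a1, which sets the rate at which cholesterol becomes bile acid, was at 76.2, 28.6 and 60.2 FPKM in pomegranate-high livers, 175, 28.9 and 45.1 FPKM in model livers, and 13.998, 15.3 and 17.9 FPKM in normal control livers. The normal control values were close together and below all 6 others (log2 difference 1.64 ± 0.58 SE, limma adjusted p 0.417), and against the model livers the log2 difference was -0.27. It was the sole one of the 19 tested bile acid genes at an unadjusted p under 0.05, and the median of that list, -0.13, turned to 0.19 with replicate 3 as the sole pomegranate-high library. A set of 35 lipid and antioxidant genes of interest in hyperlipidemia had 34 tested members, of which 0 passed the adjusted test (lowest limma adjusted p 0.417). At an unadjusted p under 0.05, Cyp7a1 and Abca1 were higher, and 1 of the 34 was lower, and the median log2 difference was -0.08. The share of genes at that rule was no higher than the 10.2% over all genes, here and in the bile acid list.

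Other lipid and glucose lists lay near the median of all genes or changed sign between libraries. Fatty acid synthesis had a median of -0.44 over 16 genes, but 0.06 in replicate 3 alone, -0.14 without normal control replicate 2 and -0.27 without pomegranate-high replicate 1. Of these, 2 were higher and 1 lower at an unadjusted p under 0.05, beside 7.24% higher and 2.92% lower over all genes. Me1, malic enzyme, which makes NADPH, was higher, at 6.68, 4.99 and 10.8 FPKM in pomegranate-high livers, against 3.73, 4.62 and 3.48 FPKM in normal control livers. Acss2, which activates acetate, was lower at the same rule, at 5.90, 6.91 and 6.62 FPKM in pomegranate-high livers, against 9.02, 13.7 and 8.74 FPKM in normal control livers. Both separated the groups, and Me1 was closest to normal control in replicate 2. Srebf1 and Fasn, the regulator and the main synthase of fatty acids, overlapped, with log2 differences of 0.24 and -0.44.

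In triglyceride metabolism 1 of 19 tested genes was at an unadjusted p under 0.05, beside 10.2% of all genes. Lpin1, a phosphatidate phosphatase and coactivator, was at 2.16, 2.60 and 10.3 FPKM in pomegranate-high livers, against 17.8, 17.7 and 17.4 FPKM in normal control livers. The normal control libraries agreed closely, and replicate 3 stood between them and the other pomegranate-high libraries. Lpin1 had a limma adjusted p of 0.285 with all libraries and 0.0126 without replicate 3, its 1 call among 23 alternatives. Replicate 3 was the library nearest to normal control, so leaving it out favours a call. Fatty acid oxidation genes had a median of -0.08 over 31 genes, and 0.26 in replicate 3 alone. Their regulator Ppara was at 2.84, 1.33 and 14.4 FPKM in pomegranate-high livers, against 12.03, 15.9 and 6.33 FPKM in normal control livers. Replicates 1 and 2 were below all normal control libraries and replicate 3 within them.

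The lipoprotein list had a median of 0.13 over 23 genes, which was -0.09 without pomegranate-high replicate 3. Apobec1, which edits the apolipoprotein B message, was at 8.70, 4.69 and 4.83 FPKM in pomegranate-high livers, 1.84, 1.97 and 2.21 FPKM in model livers, and 2.67, 2.93 and 2.84 FPKM in normal control livers. Lpl, lipoprotein lipase, was at 3.21, 16.003 and 1.76 FPKM in pomegranate-high livers, against 1.04, 0.590 and 0.758 FPKM in normal control livers. Both were higher in all 3 pomegranate-high libraries than in any normal control library. In glucose metabolism the median was -0.35 over 19 genes, 0.18 in replicate 3 alone and -0.09 without pomegranate-high replicate 2, with Gys2 and Pck2 higher and Pck1, Irs1 and Foxo1 lower at an unadjusted p under 0.05. Gys2, liver glycogen synthase, was at 44.6, 26.9 and 30.4 FPKM in pomegranate-high livers, against 21.5, 20.7 and 20.3 FPKM in normal control livers. Irs1, an insulin receptor substrate, was at 0.571, 0.703 and 3.53 FPKM in pomegranate-high livers, against 2.92, 3.43 and 5.11 FPKM in normal control livers. Foxo1, which insulin restrains, was at 1.55, 1.78 and 8.11 FPKM in pomegranate-high livers, against 10.3, 7.48 and 6.11 FPKM in normal control livers. For both, replicate 3 fell within the normal control range while replicates 1 and 2 lay below it.

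Targets of the glucocorticoid receptor and outputs of the circadian clock were mostly lower. Of 13 tested glucocorticoid-responsive genes 9 were lower, with a median log2 difference of -0.75 that was -0.49, -1.62 and -0.71 in pomegranate-high replicates 1, 2 and 3. At an unadjusted p under 0.05, 6 were lower and 2 higher. Of those 6, Tat and Tdo2 are also on the amino acid breakdown list, Pck1 on the periportal list and Per1 on the clock list, so the lists are not separate results. Zbtb16, a zinc finger factor, was at 0.559, 0.108 and 1.40 FPKM in pomegranate-high livers, 0.306, 1.61 and 1.94 FPKM in model livers, and 9.83, 11.8 and 6.13 FPKM in normal control livers. Klf9, a hormone-induced factor, was at 0.804, 1.73 and 6.00 FPKM in pomegranate-high livers, against 13.5, 8.85 and 9.54 FPKM in normal control livers. Zbtb16 was far below in all 3 libraries (log2 difference -2.63 ± 0.38 SE, limma adjusted p 0.0861), and Klf9 less so in replicate 3. The 2 higher genes were Lcn2 and Sgk1. Lcn2, an iron-binding protein of inflammation that other signals also induce, was at 39.9, 326 and 8.01 FPKM in pomegranate-high livers, against 1.67, 0.880 and 1.88 FPKM in normal control livers. Sgk1, a kinase, overlapped, with a log2 difference of 0.81.

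Day-phase clock genes had a median of -0.56 over 11 genes, which was -0.67, -0.70 and -0.45 in pomegranate-high replicates 1, 2 and 3. Per1 was at 11.03, 2.37 and 15.03 FPKM in pomegranate-high livers, against 24.6, 23.1 and 31.6 FPKM in normal control livers. Per3, another repressor arm gene, was at 1.01, 1.22 and 0.817 FPKM in pomegranate-high livers, 4.96, 5.09 and 3.72 FPKM in model livers, and 3.12, 1.95 and 1.82 FPKM in normal control livers. Usp2, a clock-driven protease, was at 8.69, 1.78 and 6.69 FPKM in pomegranate-high livers, against 18.6, 15.2 and 10.5 FPKM in normal control livers. All 3 separated the groups; Bhlhe40, a clock repressor with a log2 difference of -0.85, did not. The hour of sampling is not in the labels, so it and the group cannot be told apart.

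RT1-CE16, an MHC class I gene on chromosome 20 at 3791629 to 3796275 on the minus strand, was the gene that fell. It was at 0.910, 0 and 0 FPKM in pomegranate-high livers, 0 FPKM in all 3 model livers, and 3.99, 6.33 and 8.29 FPKM in normal control livers. Those values correspond to 15, 0 and 0 reads against 65, 106 and 150 reads, and the groups did not overlap. The log2 difference was -2.49 ± 0.30 (SE), with a limma adjusted p of 0.0482, and 4 of 22 alternatives kept the call, with adjusted p values of 0.0196 to 0.513. Among fits of RT1-CE16 without 1 library, the call held without pomegranate-high replicate 1 or 3 and was lost without pomegranate-high replicate 2 or any of the normal control or model libraries (limma adjusted p 0.0783 to 0.211). Rat MHC class I genes are numerous, near-identical copies that vary between animals, so how reads were divided among them is uncertain. RT1-CE5, a neighbour in the same family, was at 3.18, 7.81 and 3.19 FPKM in pomegranate-high livers, against 2.35, 2.05 and 2.29 FPKM in normal control livers. The 16 tested genes of class I antigen presentation had a median log2 difference of 0.25, with 13 higher, and a median of 0.43 without pomegranate-high replicate 1 or 3.

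MHC class II genes, which present antigen to helper T cells, were all on the higher side, 8 of 8 tested, with a median log2 difference of 1.28 and 6 at an unadjusted p under 0.05. The median was 2.60, 1.14 and 0.67 in pomegranate-high replicates 1, 2 and 3, against -0.44, -0.17 and 0.69 in normal control replicates 1, 2 and 3, so replicate 3 of the 2 groups stood level. Without pomegranate-high replicate 1 the MHC class II median was 0.80, and without normal control replicate 1 it was 0.83. Cd74, the class II chaperone, was at 848, 644 and 259 FPKM in pomegranate-high livers, 101, 237 and 230 FPKM in model livers, and 91.1, 115 and 252 FPKM in normal control livers. RT1-Da was at 163, 118 and 42.8 FPKM in pomegranate-high livers, against 17.6, 18.1 and 34.7 FPKM in normal control livers. Their groups were separated only by small gaps between the replicates 3. Ciita, the master regulator of the class, was at 2.70, 2.95 and 2.24 FPKM in pomegranate-high livers, against 0.785, 0.546 and 1.70 FPKM in normal control livers. Cd74 and RT1-Da had limma adjusted p values of 0.340 and 0.302 with all libraries, and of 0.0439 and 0.0307 without pomegranate-high replicate 3. For each gene that was the 1 call among 23 alternatives. Replicate 3 was the library nearest to normal control, so leaving it out favours a call.

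Interferon-induced genes had a median log2 difference of 0.75 over 29 genes, 23 of them higher, and 10 were higher and 0 lower at an unadjusted p under 0.05. The median was 0.47, 1.28 and 0.33 in pomegranate-high replicates 1, 2 and 3, and without replicate 2 it was 0.33. Ifit2, which binds foreign RNA, was at 9.30, 17.8 and 10.4 FPKM in pomegranate-high livers, against 4.90, 2.89 and 2.96 FPKM in normal control livers. It separated the groups in all 3 libraries, as did Gbp2, a GTPase, at 18.1, 52.6 and 6.73 FPKM in pomegranate-high livers, against 3.37, 2.67 and 3.41 FPKM in normal control livers. Irf1, a transcription factor of the response, was at 21.5, 101 and 19.7 FPKM in pomegranate-high livers, against 6.68, 10.7 and 10.4 FPKM in normal control livers. Replicate 2 was the highest for all 3 genes.

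Chemokine, adhesion and NF-kB genes had a median of 1.01 over 26 genes, 24 of them higher, and 13 were higher and 0 lower at an unadjusted p under 0.05. The median was 0.75, 1.79 and 0.31 in pomegranate-high replicates 1, 2 and 3, and without replicate 2 it was 0.51. Cxcl9, which draws T cells, was at 38.1, 135 and 27.7 FPKM in pomegranate-high livers, 15.3, 24.1 and 16.4 FPKM in model livers, and 9.08, 6.02 and 11.3 FPKM in normal control livers. Cxcl10, a ligand of the same receptor, was at 24.5, 154 and 22.7 FPKM in pomegranate-high livers, against 1.91, 1.49 and 5.84 FPKM in normal control livers. Neither overlapped (log2 differences 2.49 ± 0.50 and 3.63 ± 0.74 SE, limma adjusted p 0.285 for both). Cxcl9 and Cxcl10 are also on the interferon list, so the counts of the 2 lists are not separate results. Cxcl1, which draws neutrophils, was at 41.2, 563 and 14.4 FPKM in pomegranate-high livers, against 8.75, 5.00 and 2.104 FPKM in normal control livers. Ccl2, which draws monocytes, was at 2.63, 40.5 and 1.62 FPKM in pomegranate-high livers, against 0.222, 0.432 and 0.533 FPKM in normal control livers. Replicate 2 held the highest level of these 4 chemokines. Cxcl13, which draws B cells, differed in this, at 2.26, 1.498 and 2.21 FPKM in pomegranate-high livers, against 1.03, 0.264 and 0.685 FPKM in normal control livers. Acute phase genes, which hepatocytes make in inflammation, had a median of -0.02 over 22 genes, with 0.71 in replicate 2 and values below 0 in replicates 1 and 3. Lbp, the lipopolysaccharide-binding protein, was at 248, 825 and 183 FPKM in pomegranate-high livers, against 119, 116 and 151 FPKM in normal control livers.

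**Figure D4:**
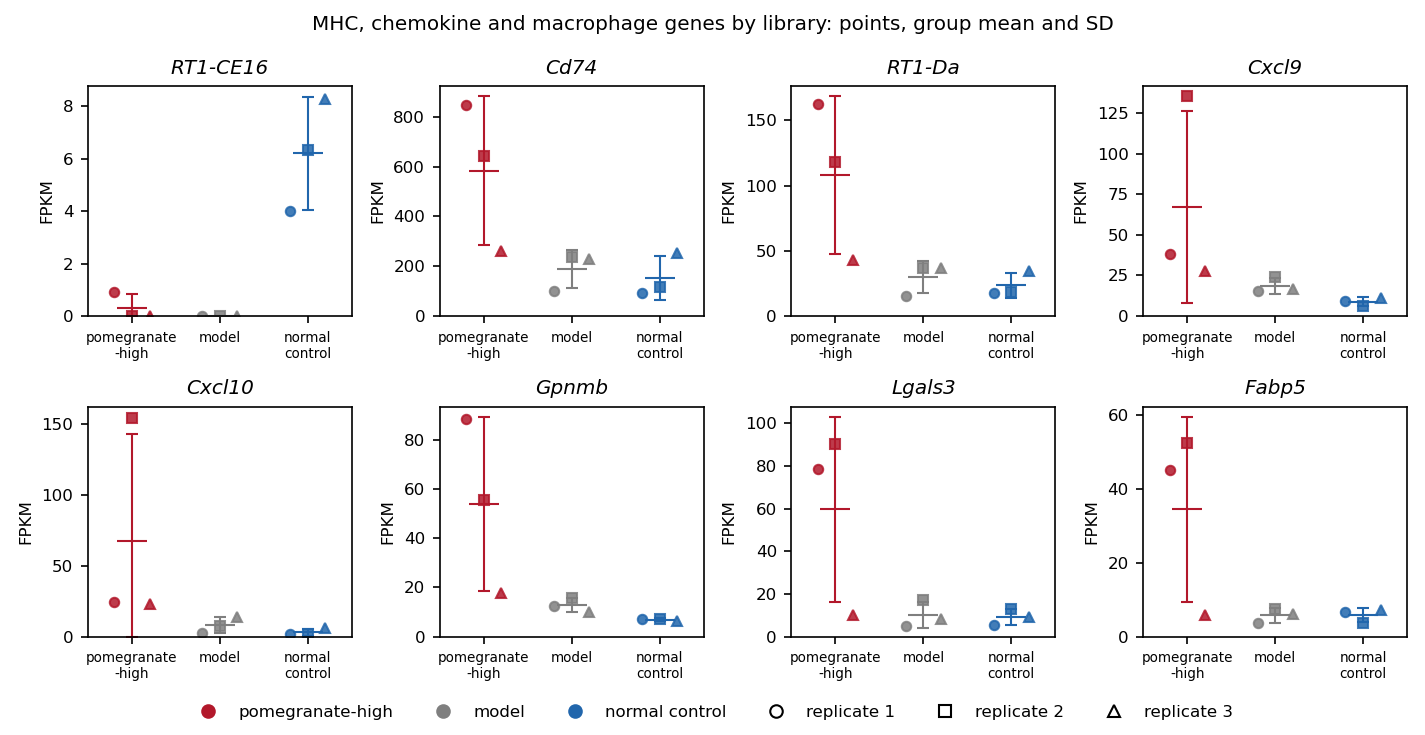
FPKM of 8 MHC, chemokine and macrophage genes in each library of the 3 groups; points are libraries, horizontal bars the group mean and vertical bars the SD, cut at 0. RT1-CE16 is near 0 outside the normal control livers, while Lgals3 and Fabp5 are high in pomegranate-high replicates 1 and 2 and at the normal control level in replicate 3.

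Single genes known from macrophages differed between the pomegranate-high libraries. Gpnmb, a surface glycoprotein of lipid-laden macrophages, was at 88.3, 55.6 and 17.7 FPKM in pomegranate-high livers, 12.6, 15.7 and 10.1 FPKM in model livers, and 7.22, 7.23 and 6.15 FPKM in normal control livers. Every pomegranate-high library lay above every other (log2 difference 2.54 ± 0.47 SE, limma adjusted p 0.263). Lgals3, galectin 3, was at 78.5, 90.3 and 10.1 FPKM in pomegranate-high livers, against 5.47, 12.8 and 9.12 FPKM in normal control livers. Fabp5, a fatty acid carrier, was at 45.1, 52.6 and 5.95 FPKM in pomegranate-high livers, against 6.59, 3.66 and 7.31 FPKM in normal control livers. These last 2 genes were picked for mention after their values were seen, and for both the groups overlapped at replicate 3. Lyz2, lysozyme, was at 88.8, 181 and 53.3 FPKM in pomegranate-high livers, against 15.9, 16.6 and 33.0 FPKM in normal control livers. Cd163, a scavenger receptor of resident macrophages, was at 6.98, 3.18 and 7.78 FPKM in pomegranate-high livers, against 9.57, 9.00 and 11.3 FPKM in normal control livers. Lyz2 was thus higher and Cd163 lower in all 3 libraries.

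Markers of the other liver cells were read as whole lists. The 18 Kupffer cell and macrophage markers, of which 17 were tested, summed to 1441, 755 and 676 FPKM in pomegranate-high livers, against 547, 647 and 941 FPKM in normal control livers. The sums overlapped, and the list median of 0.21 was -0.08 in replicate 3 and -0.06 without replicate 1. The 22 T and NK cell markers, of which 11 were tested, summed to 64.8, 66.6 and 48.0 FPKM in pomegranate-high livers, against 29.4, 30.7 and 64.4 FPKM in normal control livers. These sums overlapped, with pomegranate-high replicate 3 below normal control replicate 3. The median of the tested markers, 0.49, was 0.30 without normal control replicate 1 and 0.85 without normal control replicate 3. Among genes averaging at least 5 FPKM it was 0.07. In pomegranate-high replicates 1, 2 and 3 it was 0.66, 0.64 and 0.41, against 0.42 in normal control replicate 3. Of those tested 10 were higher, 5 of them at an unadjusted p under 0.05, such as Cd8a at 8.63, 9.57 and 2.92 FPKM in pomegranate-high livers, against 1.38, 1.30 and 2.61 FPKM in normal control livers. The 12 neutrophil markers, of which 2 were tested and 8 were below 1 FPKM in all 9 libraries, summed to 5.69, 35.9 and 7.96 FPKM in pomegranate-high livers, against 3.33, 3.33 and 2.93 FPKM in normal control livers. Neutrophil sums were highest in pomegranate-high replicate 2, the library with the highest median over the chemokine list. Of 12 B and plasma cell markers 2 were tested, with a median of -0.04. The part of these cells in the immune gene values above was not tested.

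Stellate cell and matrix genes had a median log2 difference of 0.39 over 21 genes, 18 of them higher, with 6 higher and 0 lower at an unadjusted p under 0.05. The median was 0.54, 0.75 and 0.15 in pomegranate-high replicates 1, 2 and 3. Col3a1, a fibrillar collagen, was at 51.4, 61.5 and 27.9 FPKM in pomegranate-high livers, 19.4, 14.4 and 14.3 FPKM in model livers, and 15.4, 16.1 and 24.6 FPKM in normal control livers. Lox, which cross-links collagen and is on the fibrosis list instead, was at 1.45, 4.68 and 3.21 FPKM in pomegranate-high livers, 2.30, 1.09 and 1.41 FPKM in model livers, and 0.643, 0.338 and 0.0347 FPKM in normal control livers. Neither overlapped between pomegranate-high and normal control livers (log2 differences 1.24 ± 0.32 and 1.56 ± 0.33 SE, limma adjusted p 0.305 and 0.285). The 22 markers, 21 of them tested, summed to 444, 462 and 292 FPKM in pomegranate-high livers, against 273, 283 and 295 FPKM in normal control livers, so replicate 3 was within the normal control range. Fibrosis genes had a median of 0.29 over 15 genes, with 6 higher and 0 lower at an unadjusted p under 0.05. That median turned to -0.40 when genes averaging under 5 FPKM were left out and was 0.15 to 0.67 without 1 library.

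Sinusoidal endothelial markers lay on the other side. Of 18 tested, 15 were lower, with a median of -0.33 and with 4 lower and 0 higher at an unadjusted p under 0.05. Stab2, a scavenger receptor of these cells, was at 1.44, 2.33 and 2.16 FPKM in pomegranate-high livers, 1.4996, 1.92 and 1.25 FPKM in model livers, and 3.93, 3.92 and 3.67 FPKM in normal control livers. Stab1, its relative, was at 1.84, 3.31 and 5.42 FPKM in pomegranate-high livers, against 6.20, 9.43 and 10.7 FPKM in normal control livers. Ehd3, a membrane-trafficking gene of the same cells, was at 20.5, 13.8 and 18.1 FPKM in pomegranate-high livers, against 28.1, 31.4 and 28.2 FPKM in normal control livers. Kdr, the VEGF receptor, had a log2 difference of -0.63. All 4 separated the groups. The 18 markers summed to 157, 226 and 165 FPKM in pomegranate-high livers, against 228, 238 and 256 FPKM in normal control livers, and the list median was -0.50, -0.04 and -0.47 in pomegranate-high replicates 1, 2 and 3 and -0.50 without replicate 2.

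**Figure D5:**
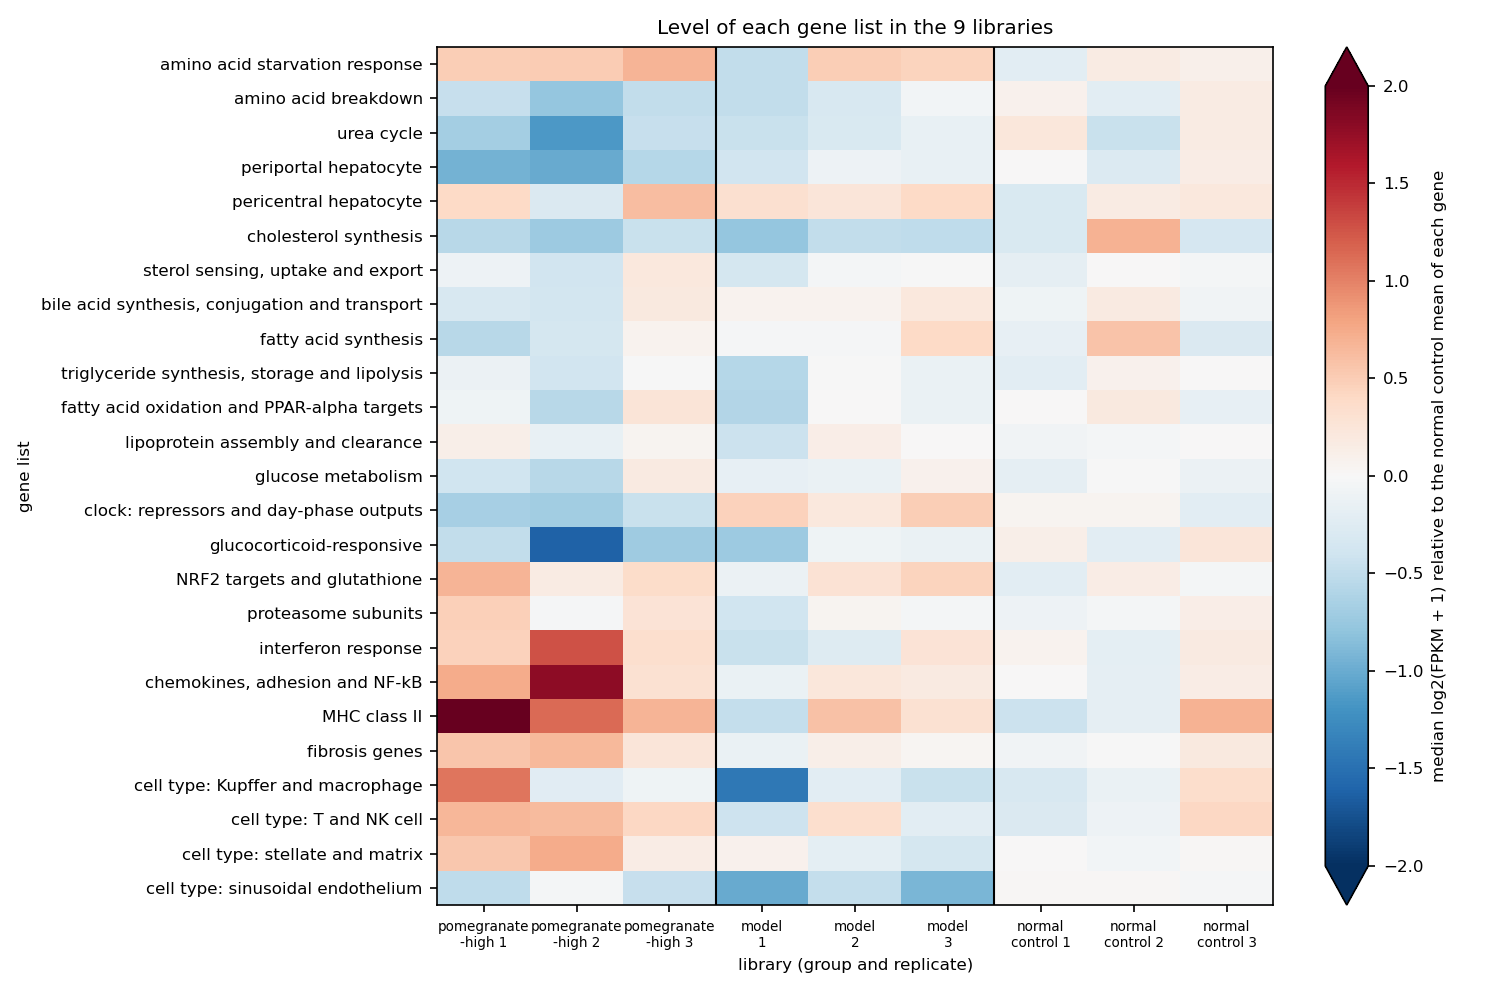
Median log2(FPKM + 1) of each of 25 gene lists (rows) in each of the 9 libraries (columns), relative to the normal control mean of each gene; red is higher and blue lower. Chemokine genes are at 1.79 in pomegranate-high replicate 2 and MHC class II genes at 2.60 in replicate 1, while cholesterol synthesis genes are below 0 in every library but normal control replicate 2.

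Genes against oxidants and foreign chemicals showed few differences. The NRF2 and glutathione list had a median log2 difference of 0.51 over 20 genes, 17 of them higher, and it was 0.68, 0.17 and 0.37 in pomegranate-high replicates 1, 2 and 3, but it was 0.33 without normal control replicate 1, and 1 of the 20 was at an unadjusted p under 0.05. Prdx1, a peroxide-removing enzyme, was at 631, 541 and 479 FPKM in pomegranate-high livers, 418, 541 and 389 FPKM in model livers, and 411, 386 and 348 FPKM in normal control livers. Txn1, thioredoxin, was at 457, 260 and 154 FPKM in pomegranate-high livers, against 122, 154 and 167 FPKM in normal control livers. Prdx1 did not overlap and Txn1 did at replicate 3. The 16 antioxidant enzymes had a median of 0.16, or 0.0030 without pomegranate-high replicate 1, with 0 at an unadjusted p under 0.05 in either direction. Genes of drug-metabolizing receptors and P450s had a median of -0.13 over 15 genes, with Nr1i2, the xenobiotic receptor PXR, at 110, 58.3 and 101 FPKM in pomegranate-high livers, against 163, 150 and 144 FPKM in normal control livers.

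The remaining genes with the smallest p values had these levels. Anxa7, a calcium-dependent membrane binder, was at 12.4, 13.4 and 7.37 FPKM in pomegranate-high livers, 7.39, 6.51 and 5.93 FPKM in model livers, and 2.96, 2.72 and 3.56 FPKM in normal control livers. Inpp1, an inositol phosphatase, was at 6.65, 8.74 and 6.07 FPKM in pomegranate-high livers, against 2.60, 2.68 and 2.58 FPKM in normal control livers. Ptgis, prostacyclin synthase, was at 2.52, 1.47 and 2.07 FPKM in pomegranate-high livers, against 0.0365, 0.284 and 0.394 FPKM in normal control livers. All 3 separated the groups, with limma adjusted p values of 0.139, 0.214 and 0.262. Pla2g2a, a secreted phospholipase, was at 7.92, 6.61 and 2.17 FPKM in pomegranate-high livers, against 0.656, 0.921 and 0.262 FPKM in normal control livers. Fcnb, ficolin B, a lectin of myeloid cells, was at 2.33, 10.5 and 4.88 FPKM in pomegranate-high livers, against 0.434, 0.141 and 0.564 FPKM in normal control livers. On the lower side, the snoRNA SNORA79 was listed at 0 FPKM in all 3 pomegranate-high livers, against 0.853, 2.91 and 1.54 FPKM in normal control livers. Over its 145 bp those values are 0 reads in each pomegranate-high library, against 2, 7 and 4 reads in the normal control ones. Model livers had 3, 2 and 3 reads. A value of 0 in a single library allows up to 3 reads, so each library's level rests on very few reads. The miRNA hairpin Mir291b was at 11.3, 11.2 and 31.3 FPKM in pomegranate-high livers, against 92.2, 49.6 and 50.5 FPKM in normal control livers. These 2 are short RNAs in a poly(A) library, so reads of overlapping transcripts may be counted for them, which was not tested.

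Against the model livers, 1 gene passed the adjusted test (0.00903% of 11078). Hba-a3, an alpha globin, was at 29.6, 41.7 and 21.5 FPKM in pomegranate-high livers, against 4.94, 5.84 and 6.01 FPKM in model livers (log2 difference 2.23, limma adjusted p 0.0386). At an unadjusted p under 0.05, 789 genes (7.12%) were higher and 174 (1.57%) lower in pomegranate-high than in model livers. The normal control livers had 17.3, 17.0 and 16.7 FPKM, and globin copies share sequence, so the assignment of reads is uncertain. Red blood cell markers summed to 355, 391 and 211 FPKM in pomegranate-high livers, 53.4, 158 and 64.6 FPKM in model livers, and 195, 281 and 232 FPKM in normal control livers, and their part in the globin value was not tested. Between model and normal control livers RT1-CE16 was the 1 gene that passed (0.00903%, limma adjusted p 0.0332), and at an unadjusted p under 0.05, 133 genes (1.2%) were higher and 197 (1.78%) lower in model livers. This comparison and the pomegranate-high one share the normal control livers, so the median list values stand only side by side. Amino acid breakdown was at -0.58 in pomegranate-high and -0.25 in model livers, both relative to normal control. Cholesterol synthesis was at -0.60 in both, chemokines at 1.01 in pomegranate-high and 0.14 in model livers, and sinusoidal endothelial markers at -0.33 in pomegranate-high and -0.80 in model livers. Model replicate 1, the library with 14.5% mitochondrial reads, entered all of these model values. Its sinusoidal endothelial median was -1.01, against -0.48 and -0.91 in model replicates 2 and 3.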

How the data were processed

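Per the labels' protocols, messenger RNA was captured by its poly(A) tail, broken up and copied with random primers. The authors deposited FPKM values per gene and library. The submitters' processing notes name, with no role or order, DESeq, DESeq2, HTSeq 0.6.0, TopHat2, HISAT2, Bowtie2 2.2.3 and the build Rnor_6.0. How FPKM was computed and whether strand was used are not given in the sources used here. Gene positions and symbols are those of the deposited table.

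From FPKM, limma 3.58.1 in R 4.3.3 was fitted to log2(FPKM + 1) of all 9 libraries, 3 groups as levels, with an intensity-trended prior variance, two-sided, and p-values Benjamini-Hochberg adjusted over 11078 genes. The +1 understates changes of low genes. On simulated data, this fit recovered 24 of 100 genes given a log2 change of 1, 96 of 100 given 3, and made 7 false calls among 10878. The simulation changed only genes above a minimum mean level and drew independent normal noise with the same spread in all groups. In the real data the median SD over genes was 0.225 in normal control, 0.332 in model and 0.345 in pomegranate-high livers. The simulated counts therefore need not hold for the real data. Read numbers and depth were recovered from the steps of the FPKM values (100% of 146433 values whole within 0.001 reads; gene lengths were solved from the same values). A value of 0 allows up to 3 reads, between 0.167 and 0.219 FPKM for a gene of 1 kb, counting error only.

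Genes named are the 10 per direction with the smallest p (those past the adjusted threshold first), up to 3 per list, members of a list at an unadjusted p under 0.05, and a set of 35 lipid and antioxidant genes. The members and the 53 lists (967 symbols, of which 890 matched by symbol and 10 by RefSeq synonym) were chosen with earlier results of these data known. Replicates are numbered in the order of deposit and pair nothing. Alternatives covered pseudocount, filters, scaling, weights, covariate, voom on the recovered reads and leaving libraries out. Results for a few genes are not reported here.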

Additional observations from a re-analysis of the deposited data

How the results depend on the processing

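The count of 2 genes at an adjusted p under 0.05 was 0 with a pseudocount of 0.1, with no filter, with a mean of at least 5 FPKM, with the 2 groups alone, with the mitochondrial share as covariate, without the 3 libraries with the highest mitochondrial share, and without the 2 pomegranate-high ones among them (added after seeing the data). It was 1 with median-of-ratios scaling, without mitochondrial genes in the total, with quantile normalization, with no intensity trend and with voom, and 6 with quality weights. A rule of an unadjusted p under 0.05 with a 2-fold difference gave 390. Leaving out 1 library gave 0 to 328, where 328 came without pomegranate-high replicate 3. The 1125 genes at an unadjusted p under 0.05 became 1823 with no filter, 575 at a mean of at least 5 FPKM, 2224 with quality weights, 626 without the 3 libraries with the highest mitochondrial share, 343 without the 2 pomegranate-high ones, and 588 to 2306 without 1 library. The cause of these moves was not tested. Of 138 genes named, 134 kept their sign under every alternative that fitted them. Many were named for a small p in the main fit, and the alternatives reuse its libraries, so this count does not measure robustness. Ppara turned to 0.39 and Foxo1 to 0.052 with pomegranate-high replicate 3 alone in its group. Srebf1 turned to -0.041 without normal control replicate 3 (-0.041 to 0.61 without 1 library). Fasn turned to 0.089 without normal control replicate 2 (-0.76 to 0.089 without 1 library). Of 47 list medians, 23 kept their sign. The difference in mitochondrial share was 2.01 to 5.61 percentage points without 1 library. No paired analysis was possible because the titles of the pomegranate-high and normal control libraries share fewer than 2 numbers. With 3 libraries a group, most changes of 2-fold were missed in the simulated data, so real ones may be missed too.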

Other observations

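Protein-handling genes are not described above. Of 27 proteasome subunits 23 were higher in pomegranate-high livers, with a median log2 difference of 0.21, but 16 were higher with TPM scaling (median 0.08), 18 with median-of-ratios scaling (0.11) and 17 with quantile normalization (0.11), beside 6363 of 11078 over all genes as deposited. Without pomegranate-high replicate 1 the median was 0.12. The median was 0.47, -0.03 and 0.27 in replicates 1, 2 and 3. Psmb2, a catalytic core subunit, was at 102, 94.3 and 81.6 FPKM in pomegranate-high livers, against 66.8, 67.1 and 57.0 FPKM in normal control livers. Psma1, a core ring subunit, was at 69.2, 64.2 and 69.5 FPKM in pomegranate-high livers, against 47.4, 46.0 and 55.4 FPKM in normal control livers. Neither overlapped and neither passed the adjusted test (limma adjusted p 0.433 and 0.486). Of 21 chaperone and unfolded protein genes of the endoplasmic reticulum, 15 were higher and 6 lower, with a median log2 difference of 0.29. At an unadjusted p under 0.05, 1 was higher and 1 lower. The lower one, Edem1, which directs misfolded proteins out of the endoplasmic reticulum, was at 18.7, 13.5 and 25.8 FPKM in pomegranate-high livers, against 46.8, 45.5 and 35.1 FPKM in normal control livers. Hsph1, a heat shock protein, was at 22.0, 14.5 and 26.3 FPKM in pomegranate-high livers, against 30.3, 39.6 and 47.7 FPKM in normal control livers. In model livers Hsph1 was at 17.2, 20.5 and 21.7 FPKM. Cyp2c11, a male-biased rat P450 with close family copies, so of uncertain read assignment, was at 744, 838 and 578 FPKM in pomegranate-high livers, against 488, 380 and 374 FPKM in normal control livers.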
